A study of Homo sapiens with 18 samples.

Results

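The BCL2 family genes studied here were BCL2, BCL2L1, MCL1, BAX, BAK1, BBC3, PMAIP1, BID, BIK and BCL2L11. They were taken by gene name from the non-control spots of every array, and all 10 were found among the 36204 gene names measured. Total RNA came from HT29, a human colorectal adenocarcinoma cell line sensitive to oxaliplatin (OXA), and from HTOXAR3, a single subline derived from it by continuous exposure to rising OXA doses. Each line was left untreated, treated for 24 h with OXA, or treated for 24 h with OXA plus Curcumin. The sample labels say untreated, whereas the study describes vehicle treatment in its results and no treatment in its methods. Curcumin was dissolved in ethanol and OXA in water. The OXA dose was 10 µM in HT29 and 30 µM in HTOXAR3, so the lines were compared at different doses, and the Curcumin dose was 10 µM in both. Each of the 6 groups held 3 biological replicates, hybridised to 18 one-colour arrays. No arrays of Curcumin alone were analysed here.

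Proteins of the BCL2 family decide whether the outer mitochondrial membrane stays intact. BCL2, BCL2L1 (BCL-XL) and MCL1 keep cells alive by holding their relatives in check, whereas BAX and BAK1 form the pores that release cytochrome c. The BH3-only proteins BBC3 (PUMA), PMAIP1 (NOXA), BID, BIK and BCL2L11 (BIM) relay stress signals to the other members, and BBC3 and PMAIP1 are well-known p53 target genes.

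Levels are given as log2 of the quantile-normalised spot intensity, and differences as log2 differences with their standard error (SE). Each gene has its own probe, so levels were compared between groups and never between genes. A gene was called when its limma p-value fell under 0.05 after the Benjamini-Yekutieli adjustment, made over all 36204 names, and its fold change was over 1.2. Across the arrays, 52.4% to 63.6% of non-control spots were well above background, and within a group any pair of arrays correlated at 0.985 or more. Of 11 epithelial markers 8 were well above background on all arrays, including EPCAM, KRT20 and VIL1, while CDX2, CDH17 and CEACAM5 were not. Of 10 markers of fibroblasts, leukocytes and endothelium, PTPRC, CD68 and VWF were well above background on all arrays and COL1A2 and COL3A1 on none, and the median of this list lay between 4.17 and 5.39 across the arrays. Arrays of bulk RNA cannot tell fewer cells from less RNA per cell.

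The 10 genes were measured by 15 probes, of which 14 were well above background on all 18 arrays. The exception was the BCL2 probe for transcript variant alpha. For the 4 genes with several probes, the probe with the highest mean stood for the gene, and the other probes are described separately.

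**Figure D1:**
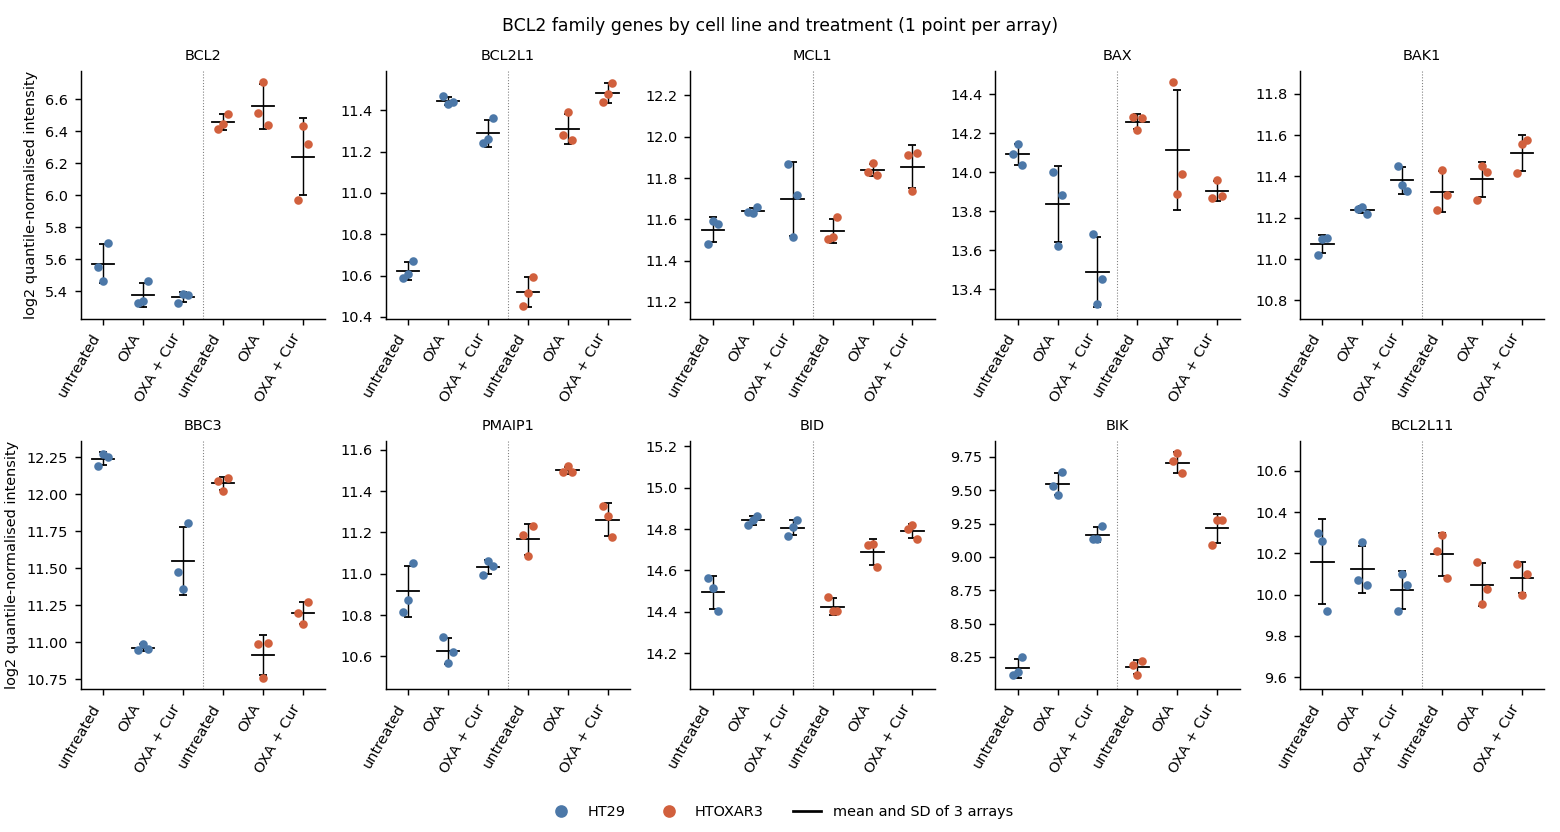
Log2 quantile-normalised intensity of the 10 BCL2 family genes (y axis, own scale per gene) in the 3 treatments of HT29 (blue) and HTOXAR3 (orange). Points are single arrays, and bars show the mean and SD of 3 arrays. BIK and BCL2L1 lay higher and BBC3 lower on every treated array than on every untreated array of the same line, whereas the BCL2 levels were separated by line.

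Between the untreated lines, BCL2 was the only one of the 10 genes that was called. Its level was 5.55, 5.46 and 5.70 in HT29 replicates 1, 2 and 3 and 6.42, 6.45 and 6.51 in HTOXAR3. Every HTOXAR3 array therefore lay above every HT29 array. The difference was 0.89 (SE 0.11), a 1.85-fold higher level in HTOXAR3 (limma, adjusted p = 0.00031). With a normexp offset of 50, near which the lowest value of the authors' table lies, it was 0.50 and still called. The call of 1 of 10 genes stood beside 11.5% of all names in the same comparison, and 21.6% of the 17456 names well above background on all arrays. BAK1 and PMAIP1 each differed by 0.25 (SE 0.07) without passing the threshold, with adjusted p-values of 0.19 and 0.20. Without HT29 untreated replicate 3 the PMAIP1 difference was 0.32 and was called, with an adjusted p of 0.044 in limma. The other 7 genes differed by -0.17 to 0.17, and the median of the 10 was 0.02 against -0.03 over all names.

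The BCL2 probe that stood for the gene was annotated to transcript variant beta, at chr18:60985401-60985460 of GRCh37, and the variant alpha probe at chr18:60790723-60790782, 194678 bases away. Variant alpha encodes the membrane-anchored form of the protein, and variant beta a form with another carboxyl end. The alpha probe was well above background on none of the 9 HT29 arrays and on 4 of the 9 HTOXAR3 arrays. Its untreated levels were 3.69, 3.31 and 3.68 in HT29 and 5.17, 5.57 and 5.06 in HTOXAR3, where 2 of 3 arrays were above background. With HT29 values raised to the lowest signal well above background on each array, variant alpha was 2.31-fold higher in untreated HTOXAR3. This fold used the mean of all 3 HTOXAR3 arrays and a normexp offset of 0, and was not computed at other offsets. The fit over all probes gave an adjusted p of 5.0e-06 in limma. Both probes thus put BCL2 higher in the resistant line.

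Under treatment in HTOXAR3 the alpha probe of BCL2 was called and the beta probe was not, and the difference between the probes was not tested. The beta probe read 6.51, 6.71 and 6.44 after OXA and differed from untreated by 0.10 (SE 0.11, adjusted p = 1.00 in limma). The alpha probe read 4.67, 4.62 and 4.44 after OXA, all below the untreated arrays, being well above background on 2 of 3 arrays in each group, and fell by 0.69 on the log2 scale (SE 0.13, adjusted p = 0.024 in limma over all probes). After OXA plus Curcumin it read 4.11, 4.34 and 4.02, not well above background on any array. With these values raised to the lowest signal well above background on each array, it was 1.83-fold lower than in untreated cells. The fit over all probes gave an adjusted p of 0.00023 in limma. These alpha probe sizes were likewise obtained at a normexp offset of 0 only. After the combination the beta probe differed by -0.22 (SE 0.11) and was not called. In HT29 the beta probe differed from untreated by -0.19 after OXA and by -0.21 after the combination, neither past the threshold.

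**Figure D2:**
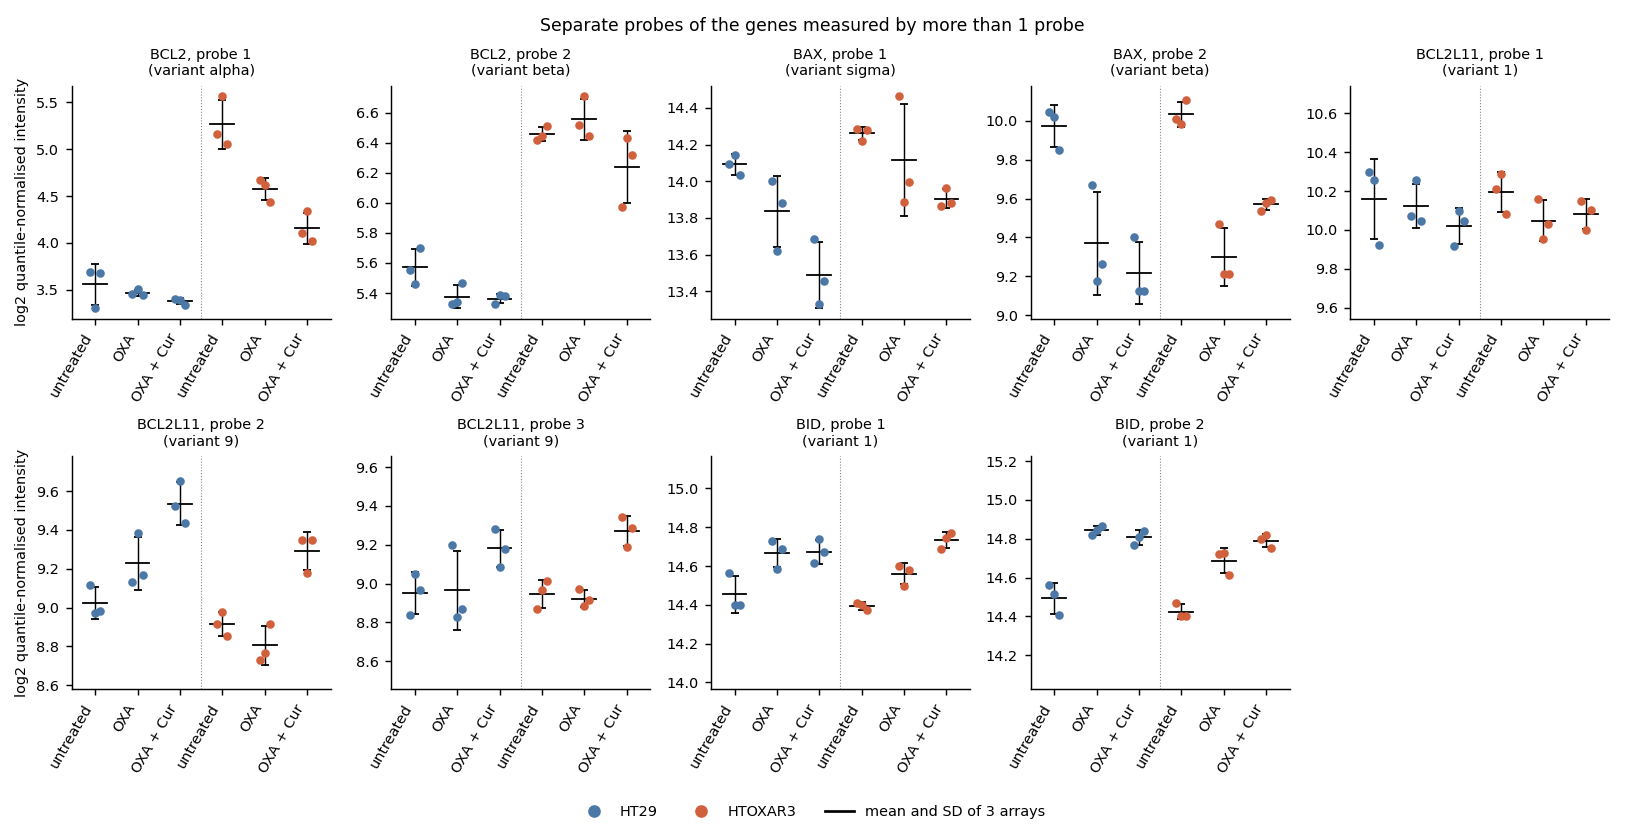
Log2 quantile-normalised intensity (y axis, own scale per probe) of each probe of BCL2, BAX, BCL2L11 and BID by line and treatment. Points are arrays, and bars the mean and SD of 3 arrays. The BCL2 alpha probe lay lower after OXA in HTOXAR3 (4.44 to 4.67) than before it (5.06 to 5.57) while the beta probe did not, and a variant 9 probe of BCL2L11 lay higher after OXA plus Curcumin than after OXA in both lines.

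Among the pro-survival genes, BCL2L1 rose with OXA in both lines. It was measured by 1 probe, annotated to transcript variant 1, so its transcripts were not told apart. Its levels were 10.59, 10.61 and 10.67 in untreated HT29 and 11.47, 11.43 and 11.44 after OXA. In HTOXAR3 they were 10.45, 10.52 and 10.60 before and 11.28, 11.39 and 11.25 after OXA. No treated array reached down to an untreated one. The rise was 0.82 (SE 0.06, 1.77-fold, adjusted p = 1.8e-06 in limma) in HT29 and 0.79 (SE 0.06, 1.73-fold, adjusted p = 8.0e-06 in limma) in HTOXAR3. The difference between these responses was -0.03, with a 95% interval from -0.22 to 0.15. After OXA plus Curcumin the levels were 11.24, 11.26 and 11.36 in HT29 and 11.44, 11.48 and 11.53 in HTOXAR3. The rise over untreated was then 0.66 (SE 0.06) in HT29 and 0.96 (SE 0.06) in HTOXAR3, both called, and the difference of 0.30 between the lines did not pass the threshold (adjusted p = 0.86 in limma, 95% interval 0.12 to 0.48).

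MCL1, whose protein is short-lived, was not called in any comparison with the Benjamini-Yekutieli adjustment. Its levels ranged from 11.48 to 11.61 over the untreated arrays of both lines. The differences furthest from 0 were in HTOXAR3, at 0.29 after OXA (levels 11.83, 11.87 and 11.82, adjusted p = 0.21 in limma) and 0.31 after OXA plus Curcumin (11.91, 11.73 and 11.92, adjusted p = 0.11 in limma). The treated and untreated arrays did not overlap in either case, and with the Benjamini-Hochberg adjustment both were called (adjusted p = 0.019 and 0.0096 in limma). In HT29 the differences were 0.09 and 0.15.

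The pore-forming genes were described by the probes that stood for them. BAX was called in 1 comparison, OXA plus Curcumin in HT29, where it fell from 14.09, 14.15 and 14.04 to 13.68, 13.33 and 13.46, by 0.60 on the log2 scale (SE 0.14, adjusted p = 0.037 in limma). With the combination in HTOXAR3 BAX differed by -0.36 (95% interval -0.65 to -0.06) without passing the threshold, its arrays not overlapping the untreated ones, and the difference of 0.25 between the lines was not called (95% interval -0.17 to 0.66). BAK1 rose with the combination in HT29, from 11.02, 11.10 and 11.10 to 11.45, 11.36 and 11.33, by 0.31 (SE 0.07, adjusted p = 0.035 in limma). Both calls were close to the threshold, and that of BAK1 was lost when arrays were scaled by their 75th percentile. With slide as a block they were -0.57 (adjusted p = 0.12 in limma) and 0.30 (adjusted p = 0.095), and within slides 2 and 3 BAX differed by -0.64 and -0.58 and BAK1 by 0.31 and 0.23. BAX was not called without any single array of the comparison other than HT29 OXA plus Curcumin replicate 1 (range -0.70 to -0.52), nor BAK1 without any of the 6 arrays (0.27 to 0.33).

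A second BAX probe, annotated to transcript variant beta (chr19:49464454-49464513, GRCh37), lay lower after OXA in both lines. It read 10.05, 10.02 and 9.85 in untreated HT29 and 9.67, 9.18 and 9.26 after OXA. In HTOXAR3 it read 10.01, 9.98 and 10.11 before and 9.47, 9.21 and 9.21 after OXA. It fell by 0.60 on the log2 scale in HT29 (adjusted p = 0.022 in limma over all probes) and by 0.74 in HTOXAR3 (adjusted p = 0.0077). The probe that stood for BAX, annotated to variant sigma (chr19:49464904-49464963, GRCh37), differed by -0.26 and -0.15 and was not called in either. After OXA plus Curcumin the beta probe read 9.40, 9.12 and 9.13 in HT29, below every untreated array. In HTOXAR3 it then read 9.54, 9.58 and 9.59, above every OXA array and below every untreated array. The sigma probe differed there from OXA alone by -0.21, not called. The difference between the probes was not tested.

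Under OXA alone, 4 of the 10 genes were called in HT29 and 4 in HTOXAR3. BCL2L1, BIK and BBC3 were called in both lines, BID in HT29 and PMAIP1 in HTOXAR3. These counts stood beside 15.9% of all names called in HT29, and 31.0% of the names above background on all arrays, and beside 10.2% and 20.0% in HTOXAR3. The median of the 10 differences was 0.03 in HT29 and 0.18 in HTOXAR3, against -0.01 and 0.01 over all names.

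BIK, a BH3-only protein of the endoplasmic reticulum, showed the widest range of group means among the 10 genes, at 1.54. It read 8.11, 8.14 and 8.25 in untreated HT29 and 9.53, 9.47 and 9.63 after OXA. In HTOXAR3 it read 8.19, 8.12 and 8.22 before and 9.72, 9.78 and 9.63 after OXA. The groups lay far apart in both lines. OXA raised BIK by 1.38 (SE 0.07, 2.60-fold, adjusted p = 7.3e-08 in limma) in HT29 and by 1.53 (SE 0.07, 2.89-fold, adjusted p = 1.7e-07 in limma) in HTOXAR3, and the difference between these responses was 0.15 (95% interval -0.06 to 0.37).

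BBC3 went the opposite way. Its levels were 12.19, 12.27 and 12.25 in untreated HT29 and 10.95, 10.99 and 10.96 after OXA. In HTOXAR3 they were 12.09, 12.02 and 12.11 before and 10.99, 10.76 and 11.00 after OXA. BBC3 fell on every OXA array of both lines, by 1.27 on the log2 scale in HT29 (SE 0.10, 2.42-fold, adjusted p = 3.0e-06 in limma) and by 1.16 in HTOXAR3 (SE 0.10, 2.23-fold, adjusted p = 2.0e-05 in limma). The responses differed by 0.12 between the lines (95% interval -0.18 to 0.41).

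BID, which caspase 8 cleaves to link death receptors to mitochondria, rose slightly. Its levels went from 14.56, 14.51 and 14.40 to 14.82, 14.84 and 14.86 with OXA in HT29, a rise of 0.35 (SE 0.06, adjusted p = 0.0027 in limma). In HTOXAR3 they went from 14.47, 14.40 and 14.40 to 14.72, 14.73 and 14.61, a difference of 0.26 (SE 0.06, adjusted p = 0.041 in limma) that stayed under the 1.2-fold minimum. Without HTOXAR3 OXA replicate 3 it was 0.30 and was called. The HT29 rise depended on the scaling. It was not called when arrays were scaled by their 75th percentile in place of quantile normalisation, and was at its lowest 0.23 over the alternatives. With OXA plus Curcumin, BID was called at 0.31 in HT29, a call also lost with that scaling, and at 0.37 in HTOXAR3. A second BID probe was called only with the combination in HTOXAR3, at 0.34 (adjusted p = 0.012 in limma over all probes).

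PMAIP1 was the gene whose OXA response differed most between the lines among the 10. In HT29 it read 10.82, 10.87 and 11.05 untreated and 10.69, 10.57 and 10.62 after OXA. In HTOXAR3 it read 11.19, 11.08 and 11.23 untreated and 11.49, 11.52 and 11.49 after OXA. The OXA arrays thus lay below the untreated arrays in HT29 and above them in HTOXAR3. The difference was -0.29 (SE 0.07, adjusted p = 0.070 in limma) in HT29, and PMAIP1 rose by 0.33 (SE 0.07, adjusted p = 0.036 in limma) in HTOXAR3.

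The test of the difference itself gave 0.62 for PMAIP1 (SE 0.10, 95% interval 0.41 to 0.83, adjusted p = 0.029 in limma). It was the only call among the 10 genes in this comparison, in which 1.01% of all names were called, and 1.96% of those above background on all arrays. The remaining 9 differed between the lines by -0.11 to 0.29. The size of the PMAIP1 difference moved little, from 0.55 to 0.67 when each of the 12 arrays was left out, but the call was kept only without HT29 untreated replicate 1 or HT29 OXA replicate 1. With slide as a block it was 0.61 (adjusted p = 0.070 in limma), and within slides 2 and 3 it was 0.66 and 0.71. The rise within HTOXAR3 lost its call when any of its 6 arrays was left out (0.29 to 0.37), and with slide as a block it was 0.32 (adjusted p = 0.081 in limma). Within slides 2 and 3 that rise was 0.35 and 0.28.

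**Figure D3:**
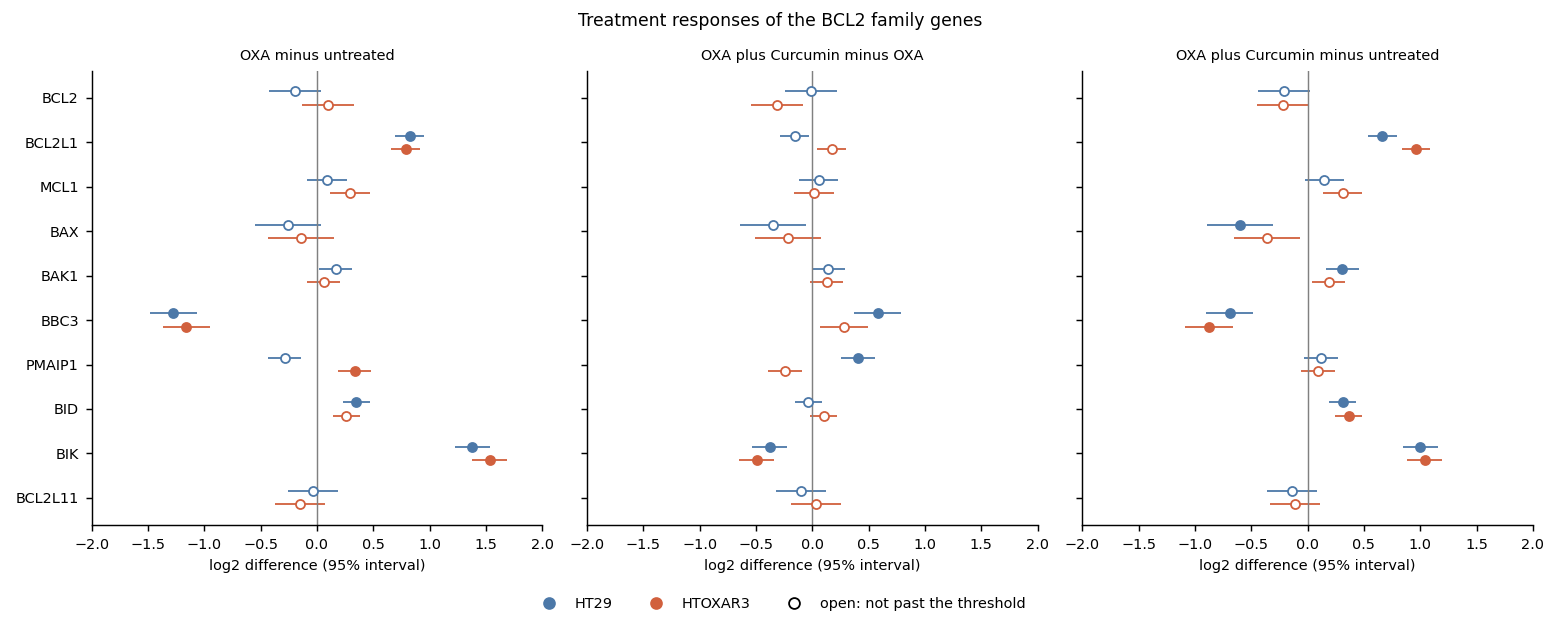
Log2 difference (x axis) of each BCL2 family gene with OXA (left), on adding Curcumin to OXA (middle) and with the combination against untreated (right) in HT29 (blue) and HTOXAR3 (orange). Lines are 95% intervals of the limma fit to 18 arrays, and filled points are called. PMAIP1 is the only gene with its intervals on opposite sides of 0 for OXA, at -0.29 and 0.33.

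The promoters of the 2 BH3-only genes BBC3 and PMAIP1 are shown because their transcripts moved in opposite directions with OXA in HTOXAR3. They run from 250 bases before to 50 bases after the annotated start in RefSeq (GRCh38.p14). BBC3 lies at chr19:47232618-47232917 on the minus strand and PMAIP1 at chr18:59899746-59900045 on the plus strand, each written 5′ to 3′ along its own strand. Capitals mark matches on either strand to the GC box GGGCGG, the CRE TGACGTCA, the AP-1 site TGANTCA, the C/EBP-ATF composite TGATGNAA, the E-box CACGTG, the NF-κB consensus and the p53 decamer.
BBC3: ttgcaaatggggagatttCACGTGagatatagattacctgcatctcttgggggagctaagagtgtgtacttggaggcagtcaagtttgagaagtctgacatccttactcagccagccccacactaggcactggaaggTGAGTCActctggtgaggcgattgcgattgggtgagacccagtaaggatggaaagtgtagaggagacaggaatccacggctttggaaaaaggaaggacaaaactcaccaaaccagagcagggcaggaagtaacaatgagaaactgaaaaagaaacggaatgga
PMAIP1: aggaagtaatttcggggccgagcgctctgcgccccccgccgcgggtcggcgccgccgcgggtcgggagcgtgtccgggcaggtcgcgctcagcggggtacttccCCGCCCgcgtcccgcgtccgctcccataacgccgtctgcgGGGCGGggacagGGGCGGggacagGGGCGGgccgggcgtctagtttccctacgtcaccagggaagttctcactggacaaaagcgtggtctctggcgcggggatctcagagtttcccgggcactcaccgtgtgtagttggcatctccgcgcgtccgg
The PMAIP1 window held 4 GC boxes, a motif found in 45.0% of the 35116 promoters of the same length, and the BBC3 window held none. BBC3 held 1 AP-1 match (7.71% of promoters) and 1 E-box (7.26%). No matched letters overlapped between motifs, and GC content was 71.3% for PMAIP1 and 48.0% for BBC3. Neither window held the letters of the CRE (1.85% of promoters), the C/EBP-ATF composite (3.62%), the NF-κB consensus (11.3%) or the p53 decamer (6.63%), which says nothing of sites outside it. The CRE half-site TGACG, found in 24.6% of promoters and not capitalised, had 1 match in PMAIP1 and 0 in BBC3.

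Adding Curcumin to OXA was compared with OXA alone, so these differences share their OXA arrays with the OXA responses above. In HT29 3 of the 10 genes were called, beside 5.53% of all names and 10.9% of those above background on all arrays. BBC3 rose by 0.58 (SE 0.10, adjusted p = 0.013 in limma), to 11.47, 11.36 and 11.80, which was above every OXA array and below every untreated array. PMAIP1 rose by 0.40 (SE 0.07, adjusted p = 0.016 in limma), to 10.99, 11.06 and 11.04, above all OXA arrays. BIK fell by 0.38 on the log2 scale (SE 0.07, adjusted p = 0.031 in limma), to 9.13, 9.13 and 9.23, below all OXA arrays and above all untreated ones. BBC3 was not called without HT29 OXA replicate 1, 2 or 3 (0.45 to 0.67 over the 6 arrays left out), nor with the processed signal scaled by its 75th percentile (0.50), PMAIP1 was called only without HT29 OXA replicate 1 (0.37 to 0.44), and BIK was not called without any of the 6 (-0.42 to -0.33). The other 7 genes differed by -0.35 (BAX) to 0.14 (BAK1).

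In HTOXAR3 only BIK was called on adding Curcumin, beside 8.83% of all names and 17.3% of those above background on all arrays. It fell by 0.49 on the log2 scale (SE 0.07, adjusted p = 0.0027 in limma), to 9.09, 9.28 and 9.28, below all OXA arrays. PMAIP1 read 11.33, 11.28 and 11.18, below the OXA arrays, with a difference of -0.24 (SE 0.07) that was not called (adjusted p = 0.32 in limma). BBC3 read 11.20, 11.12 and 11.27 and differed by 0.28 (SE 0.10, adjusted p = 0.75 in limma). The other 7 genes differed by -0.31 to 0.17, with BCL2 (-0.31, SE 0.11) and BCL2L1 (0.17, SE 0.06) at the ends, each with an adjusted p of 0.69 in limma and arrays that did not overlap those of OXA. None of the 10 genes was called in the test of whether the Curcumin effect differed between the lines, in which limma called 0.135% of all names and 0.258% of those above background on all arrays. At an unadjusted p under 0.05 there were 3. PMAIP1 was the nearest, at -0.64 (SE 0.10, 95% interval -0.86 to -0.43), with an adjusted p of 0.083 that ran from 0.0075 to 0.43 over the alternatives. With the Benjamini-Hochberg adjustment PMAIP1 was the 1 gene called.

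The combination was compared with the same untreated arrays as OXA alone. With OXA plus Curcumin, 6 of the 10 genes were called in HT29, beside 18.6% of all names and 35.6% of those above background on all arrays. In HTOXAR3 4 were called, beside 17.5% and 33.4%. BCL2L1, BID and BIK rose and BBC3 fell in both lines. BIK was up by 1.00 (SE 0.07) in HT29 and 1.04 (SE 0.07) in HTOXAR3. BBC3 fell by 0.69 on the log2 scale (SE 0.10, adjusted p = 0.00079 in limma) in HT29 and by 0.88 (SE 0.10, adjusted p = 0.00010 in limma) in HTOXAR3. PMAIP1 returned to overlap the untreated arrays in both lines, with differences of 0.12 (95% interval -0.03 to 0.27) and 0.09 (-0.06 to 0.24). None of the 10 genes was called in the limma test of a line difference in this response, where 0.856% of all names and 1.64% of those above background on all arrays were, and at an unadjusted p under 0.05 there was 1, BCL2L1. The Benjamini-Hochberg adjustment also called 0.

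BCL2L11 was not called by the probe that stood for it, annotated to transcript variant 1, in any comparison, and its levels stayed between 9.92 and 10.30. A probe annotated to variant 9 (chr2:111886352-111886411, GRCh37) behaved otherwise. In HTOXAR3 it read 8.73, 8.77 and 8.92 after OXA and 9.35, 9.18 and 9.35 after OXA plus Curcumin, a rise of 0.49 (SE 0.09, adjusted p = 0.017 in limma over all probes). Over untreated HTOXAR3 cells the combination differed by 0.38 (adjusted p = 0.056 in limma over all probes). In HT29 it read 9.12, 8.97 and 8.98 untreated and 9.52, 9.65 and 9.43 after the combination, a rise of 0.51 (SE 0.09, adjusted p = 0.0051). Over OXA alone in HT29, at 9.13, 9.39 and 9.17, the difference was 0.31 (adjusted p = 0.43). The other variant 9 probe was not called in any comparison. In HTOXAR3 it read 8.97, 8.88 and 8.91 after OXA and 9.34, 9.19 and 9.29 after the combination, a difference of 0.35 (SE 0.10, adjusted p = 0.25 in limma over all probes) whose arrays did not overlap. Over untreated cells the combination differed by 0.23 in HT29 and 0.32 in HTOXAR3 on this probe.

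Beyond the 10 genes, 17 of 18 further BCL2 family genes listed were on the array, 13 of them well above background on all arrays. Of these 17, OXA called 8 in HT29 (6 higher, 2 lower) and 4 in HTOXAR3 (2 higher, 2 lower), with medians of 0.28 and -0.05. Over all names 15.9% and 10.2% were called, and 31.0% and 20.0% of those above background on all arrays. BOK, a BAX-like pore former, fell with OXA from 12.09, 12.18 and 12.30 to 9.59, 9.95 and 9.99 in HT29, by 2.35 on the log2 scale. In HTOXAR3 it fell from 11.93, 12.02 and 11.99 to 11.21, 11.39 and 11.33, by 0.67. The fall was smaller in HTOXAR3 by 1.67 (SE 0.16, adjusted p = 0.00030 in limma). BCL2L15 was the other gene of this list with a called line difference in the OXA response, at -1.0 (SE 0.13, adjusted p = 0.0065 in limma), or -0.74 and not called with the mean of all its probes. These 2 of the 17 stood beside 1.01% of all names and 1.96% of those above background on all arrays.

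Between the untreated lines 5 of the 17 were called (1 higher in HTOXAR3, 4 lower), beside 11.5% of all names and 21.6% of those above background on all arrays. The gene that was higher was BCL2A1, and BCL2L15 at -0.74 and the pro-survival gene BCL2L2 at -0.43 were among the 4 lower.

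BAD, a BH3-only protein that binds BCL2 and BCL2L1, rose with OXA by 0.98 in HT29 and by 0.51 in HTOXAR3. The pro-survival gene BCL2A1 was higher in untreated HTOXAR3 by 0.58 and rose with OXA by 0.80 in HT29 and 0.53 in HTOXAR3. With the mean of all its probes BCL2A1 was called in none of these, at 0.37 between the untreated lines and 0.82 and 0.46 with OXA. BMF, another BH3-only gene, rose when Curcumin was added, from 8.18, 8.29 and 8.24 to 9.09, 9.0 and 9.15 in HT29 and from 7.48, 7.66 and 7.68 to 8.78, 8.71 and 8.75 in HTOXAR3. These rises were 0.85 (SE 0.10, adjusted p = 0.00067 in limma) and 1.14 (SE 0.10, adjusted p = 3.4e-05 in limma). With the combination against untreated cells, 7 of the 17 were called in HT29 and 5 in HTOXAR3. These counts stood beside 18.6% and 17.5% of all names, and 35.6% and 33.4% of those above background on all arrays. BCL2L14 was among those called in HTOXAR3. Its probe was well above background on 2 of 3 untreated arrays and on 0 of 3 after the combination, so no size is given.

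**Figure D4:**
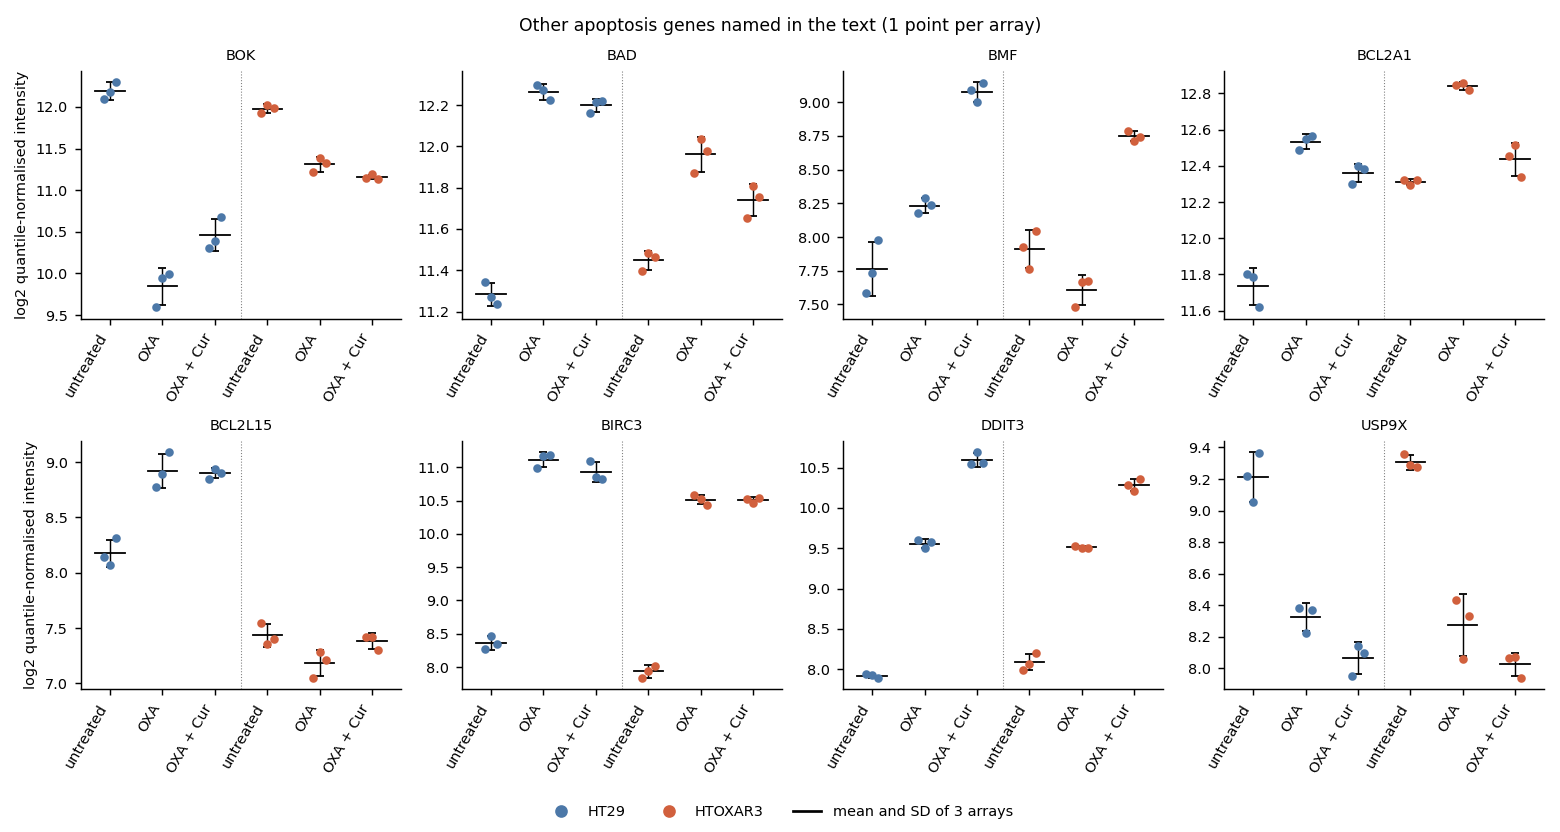
Log2 quantile-normalised intensity (y axis, own scale per gene) of 8 further genes by line and treatment. Points are arrays, and bars the mean and SD of 3 arrays. BOK lay lower after OXA in HT29 (9.59 to 9.99) than in HTOXAR3 (11.21 to 11.39), and BMF lay at 8.71 or above only in the OXA plus Curcumin groups.

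Downstream of the mitochondria, the apoptosome, caspases and inhibitors of apoptosis made a list of 20 genes. OXA called 10 of them in HT29 (5 higher, 5 lower) and 9 in HTOXAR3 (5 higher, 4 lower), with medians of 0.00 and -0.07. Over all names 15.9% and 10.2% were called, and 31.0% and 20.0% of those above background on all arrays. BIRC3, an inhibitor of apoptosis induced by NF-κB, went from 8.27, 8.47 and 8.34 to 10.98, 11.17 and 11.18 in HT29 and from 7.84, 7.95 and 8.02 to 10.58, 10.53 and 10.44 in HTOXAR3. It rose by 2.75 (SE 0.09) and 2.58 (SE 0.09). CASP9, the initiator caspase of the apoptosome, rose by 0.76 and 0.55, while DIABLO, whose product counters such inhibitors, fell by 0.75 in HT29. With the mean of all its probes DIABLO differed by -0.20 and was not called. Adding Curcumin called 2 of the 20 genes in HT29 and 4 in HTOXAR3. Over all names 5.53% and 8.83% were called, and 10.9% and 17.3% of those above background on all arrays. The combination called 11 and 9, beside 18.6% and 17.5% of all names and 35.6% and 33.4% of those above background on all arrays. CASP2 rose with OXA by 0.64 in HT29 and 0.58 in HTOXAR3. From the OXA level it fell on adding Curcumin by 0.36 in HT29 and by 0.39 in HTOXAR3 on the log2 scale, and with the mean of all its probes these differences were -0.24 and -0.26 and not called. Against untreated cells the combination differed by 0.28 in HT29, which was called, and by 0.19 in HTOXAR3, which was not. No gene of this list was called in the 3 tests of a line difference.

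Of 17 regulators of BH3-only genes and of MCL1 turnover, OXA called 7 in HT29 (5 higher, 2 lower) and 4 in HTOXAR3 (3 higher, 1 lower). The medians of the 17 were 0.01 and 0.10. Over all names 15.9% and 10.2% were called, and 31.0% and 20.0% of those above background on all arrays. DDIT3 (CHOP), a stress transcription factor, rose by 1.64 in HT29 and 1.42 in HTOXAR3 with OXA and by a further 1.04 and 0.77 when Curcumin was added. USP9X, a deubiquitinase known to stabilise MCL1 protein, fell by 0.89 in HT29 and by 1.03 in HTOXAR3 with OXA. Between the untreated lines FOXO1 differed by -1.13 and HIF1A by 0.86, both called. Adding Curcumin called 4 of the 17 in HT29 and 2 in HTOXAR3. Over all names 5.53% and 8.83% were called, and 10.9% and 17.3% of those above background on all arrays. The combination called 8 in each line, beside 18.6% and 17.5% of all names and 35.6% and 33.4% of those above background on all arrays.

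For the 3 members with the widest range of group means, the names with the most similar profile over the 18 arrays were sought among 17399 names. Among the names most similar to BIK were NAB2 (Pearson r = 0.984) and ERCC1 (0.977). BBC3 was most similar to UFSP1 (0.967), MMP15 (0.963) and HNRNPH2 (0.961), and BCL2 to ENHO (0.975), RAB11FIP3 (0.974) and TDP1 (0.971). These coefficients describe arrays that fall into 6 groups, and the points share the arrays and their normalisation.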

How the data were processed

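Total RNA of 18 samples was labelled with Cy3 and hybridised to Agilent one-colour arrays, 1 array per sample on 3 slides. The deposited scanner files hold linear spot intensity, made by Feature Extraction with no normalisation between arrays. The authors' own value table holds log2 intensity after normexp and quantile normalisation, per the methods of the study. Its 36204 lines carry no gene names, and it was used only for counts of called lines. The study's methods name normexp, quantile normalisation, an empirical Bayes linear model and the Benjamini-Yekutieli adjustment, but no offset. The lowest value of the table is 5.65, near log2 of 50 (5.64).

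Here spot means and local background medians were corrected with normexp (offset 0, limma 3.58.1 in R 4.3.3), control spots were removed, arrays were quantile-normalised, outlier spots were left out and repeated spots were averaged. Each of 36204 names was represented by its probe of highest mean intensity. A linear model with 6 group means was fitted to all 18 arrays with eBayes. A probe was well above background on an array where most of its spots carried that scanner call. The number of arrays limits the precision. The fit was tested on simulated data.

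All 10 family genes were tested in every comparison, and those not called may be given by their range. From each further list up to 3 called names with the largest change per comparison could be named. The genes and lists were chosen with earlier results of these data known, and the promoters after the values were seen. RefSeq promoters were matched by symbol for 8 of 10 genes, without BIK and MCL1. Of the names with profiles most similar to BIK, 1 is not reported here. Figures were drawn with matplotlib.

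Slides were read from the array headers. The replicate numbers come from the sample labels. Deviations from the group means correlated between same-numbered arrays at over 0.1 in every pair for OXA in HT29 (0.117 to 0.242) and for Curcumin in HTOXAR3 (0.109 to 0.195), so the numbers were counted as pairing the arrays there, and each such pair also shared a slide. All values come from the fit without the block, and the fit with it was an alternative. In the other comparisons at least 1 pair was under 0.1. Alternatives covered the offset, scaling, probes, adjustment, blocks and each array left out. Alternative probes of BCL2 were added after the data were seen, as were the same alternatives for the named genes of the further lists.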

Additional observations from a re-analysis of the deposited data

Results flagged for a closer look

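The OXA response of PMAIP1 differed between HTOXAR3 and HT29 by 0.62 on the log2 scale in the limma test of the difference, with the OXA arrays above untreated in HTOXAR3 and below in HT29. The OXA response of BOK differed by 1.67, with a smaller fall in HTOXAR3. That of BCL2L15 differed by -1.0, with levels of 8.78 to 9.09 after OXA against 8.07 to 8.31 untreated in HT29, and of 7.05 to 7.28 against 7.35 to 7.55 in HTOXAR3. The response of BAD to OXA plus Curcumin differed by -0.63 (limma, adjusted p = 0.013). BAD was the 1 gene called of the 17 further family genes there, beside 0.856% of all names and 1.64% of those above background on all arrays. The BAD difference ran from -0.66 to -0.58 with each array left out, and 2 of the 12 such fits lost the call.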

How the results depend on the processing

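The calls of BIK, BCL2L1 and BBC3 with OXA or with the combination kept their direction in every alternative. So did that of BCL2 between untreated lines, and all were kept whenever any 1 array was left out. Not all of these calls were kept in the other alternatives. With only the groups compared in the fit, at least 1 of BIK, BCL2L1 and BBC3 lost its call for OXA in HTOXAR3. The same held for the combination in HT29. With a fold minimum of 2, the numbers of family genes called were 0 (untreated lines), 2 (OXA in HT29), 2 (OXA in HTOXAR3), 0 and 0 (Curcumin in HT29 and HTOXAR3), 1 and 1 (combination in HT29 and HTOXAR3) and 0 (line difference in OXA response). With only the groups compared in the fit, which leaves fewer arrays, they were 3 for OXA in HT29 and 3 for the combination in HTOXAR3 (BID lost in both), 2 for OXA in HTOXAR3, 0 for Curcumin in either line, 2 for the combination in HT29 and 0 for the line difference in OXA response. That line difference (PMAIP1) was also 0 with slide as a block and with the replicate block, where it was 0.62 (adjusted p = 0.071 in limma). The replicate block also ended the PMAIP1 call for OXA in HTOXAR3 (adjusted p = 0.065 in limma) and changed no other call of the 10 genes. For the line difference in adding Curcumin, 1 gene in place of 0, PMAIP1, was called with normexp offsets of 16 and of 50, without dim probes, and with the Benjamini-Hochberg adjustment. That adjustment also added PMAIP1 for OXA in HT29 and MCL1 for OXA and for the combination in HTOXAR3, 5 genes called in each. With each array left out in turn, the numbers called ran from 1 to 2 (untreated lines), 4 to 4 and 3 to 4 (OXA in HT29 and HTOXAR3), 0 to 1 and 1 to 1 (Curcumin), 4 to 5 and 4 to 4 (combination), and 0 to 1, 0 to 0 and 0 to 0 (line differences in OXA, Curcumin and combination response). With the BCL2 alpha probe, the OXA difference of BCL2 in HTOXAR3 turned from 0.10 to -0.69 and was called. The cause was not tested. Of the single-gene differences of family members under all alternatives, 1977 kept their side of the threshold, 85 lost the call in the same direction and 17 gained it.

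Scaling by the 75th percentile moved the median of all names by up to 0.20 (processed signal) and 0.16 (normexp), and no member reversed. Over all names, counts called ranged over the alternatives from 1013 to 6146 (main 4177) between untreated lines, 1179 to 7944 (5774) and 468 to 5998 (3709) for OXA, 16 to 3702 (2002) and 223 to 5125 (3198) for Curcumin, 1369 to 9037 (6724) and 1194 to 8495 (6322) for the combination, each in HT29 then HTOXAR3, and 178 to 1087 (364), 5 to 323 (49) and 85 to 1244 (310) for the line differences. With the authors' own values, 146 lines were called for the line difference in adding Curcumin and 565 for that in the combination response, against 49 and 310 here. The BCL2 alpha probe was well above background on no HT29 array, and on none in HTOXAR3 after OXA plus Curcumin. Its printed levels there are measured values. Its folds involving those arrays were computed against the lowest signal well above background.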
